A study of Mus musculus with 9 samples.

Results

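*Cdx1*, *Cdx2*, *Hnf4a*, *Hnf4g*, *Gata4*, *Gata6*, *Foxa1* and *Foxa2* encode transcription factors best known from the gut tube and its derivatives, the intestine, stomach, liver and pancreas. Their RNA was examined in NMuMG cells, an immortalized line of mouse mammary gland epithelium. The 8 genes were picked by symbol from the 52459 gene symbols in the files, and the choice was made knowing that *Cdx2* RNA is high in cells that overexpress EPR. The values of these genes in EPR cells against mock cells are therefore given as a description, with no test.

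RNA-Seq had been done on 9 libraries, 3 per condition. Mock cells (libraries 203 to 205) carried the empty vector. EPR cells (libraries 206 to 208) carried a plasmid for the lncRNA *BC030870*, named EPR, which also encodes a small peptide, EPRp. EPRSTOPE cells (libraries 209 to 211) carried the same transcript with a stop codon in place of the second codon of its ORF, so that the RNA is made without EPRp. All cells shared the NMuMG background, stable transfection with a pBICEP-based vector, G418 selection and growth in DMEM with 10% FCS, and none of the labels gives a further treatment. Each population was a pool of transfectants and not a clone. The study's methods call the 3 libraries of a condition biological replicates, but the labels do not tie them to separate transfections, so the p-values below measure the spread between these libraries. Levels are given as counts per 1000000 counts (CPM, normalized by TMM) as mean ± SD over 3 libraries. A gene is said to rise or fall where its log2 fold change went beyond 0.5 and edgeR's quasi-likelihood test gave, after Benjamini-Hochberg adjustment, a p below 0.01.

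The factors work in a hierarchy. FOXA proteins bind closed chromatin early in the endoderm and open it for others, and GATA4 and GATA6 act beside them in the gut tube and in the heart. HNF4A and HNF4G are nuclear receptors that keep hepatocytes and enterocytes differentiated. CDX1 and CDX2 are homeobox factors that set intestinal identity, and CDX2 switched on outside the intestine is a hallmark of intestinal metaplasia. In the mammary gland FOXA1 serves the oestrogen receptor in luminal cells, while CDX2 is not a factor of the normal gland.

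The promoter sequences of the 2 genes whose levels lay furthest apart between the populations, *Cdx2* and *Foxa1*, are shown to give their setting. They were read from RefSeq on GRCm38.p6, run 5′ to 3′ on the gene's own strand, and end at the last base before the RefSeq start or at the edge of an overlapping exon. Positions are counted from the RefSeq start. The *Cdx2* window is chr5:147307271-147307499 (minus strand) and that of *Foxa1* is chr12:57546122-57546361 (minus strand). The *Foxa1* window ends at the start of the coding transcript Foxa1-201 and lies inside the gene as Gencode draws it, in the intron of Foxa1-202, a non-coding transcript that begins further upstream. Capitals mark matches to short motifs.
Cdx2: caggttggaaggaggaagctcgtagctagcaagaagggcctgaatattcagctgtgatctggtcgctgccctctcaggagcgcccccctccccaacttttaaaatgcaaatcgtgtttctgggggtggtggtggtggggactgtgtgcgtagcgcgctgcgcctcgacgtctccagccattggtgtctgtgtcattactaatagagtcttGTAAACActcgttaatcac
Foxa1: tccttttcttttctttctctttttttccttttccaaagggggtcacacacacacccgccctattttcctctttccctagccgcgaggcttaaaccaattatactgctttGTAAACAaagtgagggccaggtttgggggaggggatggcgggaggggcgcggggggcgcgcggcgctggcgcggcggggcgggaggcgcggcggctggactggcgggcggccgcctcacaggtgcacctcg

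In the *Cdx2* window the FOXA motif (TGTTTAC, here as its reverse complement GTAAACA) begins 40 bases before the start. The *Foxa1* window holds 1 FOXA match, 141 bases before the start. Both strands were searched for 5 motifs, and of 32851 promoter windows 3.17% held the FOXA letters, 10.8% the CDX motif TTTATG, 9.99% the GATA motif AGATAA, 0.384% the HNF4 motif CAAAGTCCA and 12.4% a TATA box written TATAAA. Each window held a single match, so none overlapped. A match is a description of letters and not a site shown to be bound.

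The lncRNA itself was measured first as a check of the labels. *BC030870* had 0, 0 and 2 estimated counts in the mock libraries. It had 271, 214 and 256 counts in the EPR libraries, or 24.8 CPM on average. In the EPRSTOPE libraries it had 28.3, 39.0 and 32.6 counts, or 4.22 CPM. The mock libraries are thus set apart from the others as labelled, but counts per gene cannot show the stop codon that parts EPRSTOPE from EPR. EPR cells held 5.9 times the *BC030870* RNA of EPRSTOPE cells. The ratios to mock cells, 348 for EPR and 58.9 for EPRSTOPE, rest on 2 mock counts. Both lie above the range of overexpression that the paper states for its transfectant pools, and the reason was not tested. Between 5972457 and 11876435 estimated counts were held by each library, so 3 counts correspond to between 0.243 and 0.507 CPM.

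*Cdx2* (ENSMUSG00000029646.3, chromosome 5 of GRCm38 from 147300805 to 147307270, minus strand) was nearly silent in mock cells and present in every library of both other populations. Its estimated counts were 0, 0 and 2 in the mock libraries. They were 119, 79 and 117 in the EPR libraries and 165, 279 and 183 in the EPRSTOPE libraries. No library of one condition overlapped another condition. On the depth-normalized scale *Cdx2* stood at 0.054 ± 0.094 CPM (SD, n = 3) in mock cells, 10.4 ± 0.48 CPM with EPR and 26.2 ± 4.6 CPM with EPRSTOPE. EPRSTOPE cells, whose plasmid gives no EPRp and which held less *BC030870* RNA, thus had the highest *Cdx2* level.

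The ratio of *Cdx2* counts in EPR cells to those in mock cells was 148, with a 95% exact interval of 40.6 to 1225 that covers counting error only, and the fitted log2 fold change was 6.96 ± 0.41 (SE). Against the same mock libraries the ratio in EPRSTOPE cells was 369 (95% exact interval 102 to 3056), with a fitted log2 fold change of 8.28 ± 0.37 (SE), also given as a description. Both sizes rest on the 2 counts of mock library 205, and the fitted log2 fold changes were 9.51 and 10.84 without that library. Since the mock libraries are shared, the second comparison is no independent check of the first. *Cdx2* was 2.5 times as high in EPRSTOPE cells as in EPR cells (interval 2.18 to 2.87, counting error only), a difference that was not tested because the gene was chosen for its level in EPR cells. In bulk RNA, more cells with a transcript and more transcript per cell cannot be told apart.

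All *Cdx2* counts came from its single annotated transcript of 2261 bases. The study's own primer pair for *Cdx2* lies inside it, which places the region that qRT-PCR reads.
Cdx2 forward primer: ctggacaaggacgtgagcat
Cdx2 reverse primer: actgcggaggactgacaaa
The first primer matches bases 307 to 326 of the transcript and the other, as its reverse complement, bases 379 to 397, for an amplicon of 91 bases.

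*Cdx1* (ENSMUSG00000024619.8, chromosome 18 from 61018862 to 61036199, minus strand), the paralogue that follows *Cdx2* in the developing intestine, had 0 counts in all 9 libraries. A count of 0 allows up to 3 counts a library, which is at most 0.507 CPM in the shallowest normalized library. *Cdx4*, the remaining member of the family, also had no count. The caudal family was thus represented in these cells by *Cdx2* RNA.

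**Figure D1:**
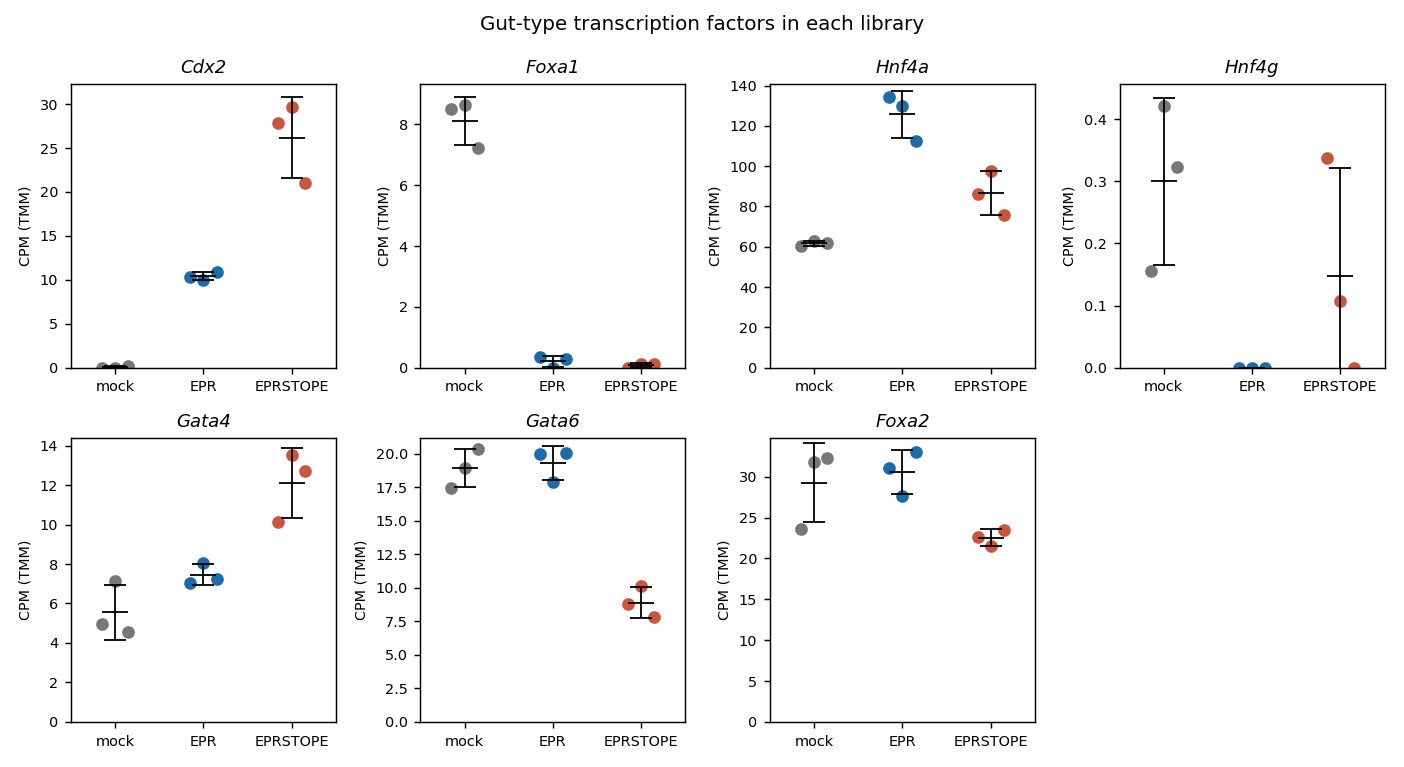
Level of each gene in each library, in CPM normalized by TMM, for mock (grey), EPR (blue) and EPRSTOPE (red) cells; points are libraries, and the horizontal and vertical bars give the mean and SD of 3 libraries. *Cdx2* runs from near 0 in mock cells to about 10.4 CPM with EPR and 26.2 CPM with EPRSTOPE, *Foxa1* runs the other way, and *Cdx1*, with no counts, is not drawn.

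*Foxa1* (ENSMUSG00000035451.7, chromosome 12 from 57540628 to 57546916, minus strand), the pioneer factor that mammary luminal cells share with the endoderm, showed the opposite order. It had 55, 82 and 89 estimated counts in the mock libraries, 4, 0 and 3 in the EPR libraries, and 0, 1 and 1 in the EPRSTOPE libraries. Every mock library lay above every library with either transcript. The level was 8.12 ± 0.78 CPM (SD, n = 3) in mock cells, 0.209 ± 0.184 CPM with EPR and 0.074 ± 0.064 CPM with EPRSTOPE. Both of the last values lie at or under the level of 3 counts per library.

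The ratio of *Foxa1* in mock cells to EPR cells was 34.4 (counting interval 16.4 to 86.6), and the fitted log2 fold change was -5.07 ± 0.48 (SE). For mock cells against EPRSTOPE cells the ratio was 95.9 with an exact interval of 26.3 to 797, and the fitted log2 fold change of EPRSTOPE against mock was -6.40 ± 0.58 (SE). The residual *Foxa1* counts of EPR and EPRSTOPE cells could not be told apart at this depth (log2 fold change 1.33, 95% interval -0.48 to 3.14). *Cdx2* and *Foxa1* passed the filter on low counts only through the conditions in which they were high, so they could hardly have been tested without differing, and no test of either is given.

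*Foxa2* (ENSMUSG00000037025.11, chromosome 2 from 148042877 to 148046969, minus strand), its paralogue in endoderm and liver, was kept in all 3 populations. It had 153, 303 and 398 counts in the mock libraries, 357, 220 and 355 in the EPR libraries and 134, 202 and 205 in the EPRSTOPE libraries. After normalization the levels were 29.3 ± 4.9 CPM (SD, n = 3), 30.6 ± 2.7 CPM and 22.6 ± 1.0 CPM. Mock and EPR libraries overlapped, with a log2 fold change of 0.06 (95% interval -0.18 to 0.29). The EPRSTOPE libraries lay below all others, but neither difference passed the test. The log2 fold change was -0.39 ± 0.12 (SE, adjusted p = 0.0217) against mock cells, and EPR cells exceeded EPRSTOPE cells by 0.44 ± 0.12 (SE, adjusted p = 0.0172, edgeR).

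The total of *Foxa2* was steadier than the way Kallisto divided it between its 4 annotated transcripts. Of the counts summed over libraries, Foxa2-201 (2128 bases) took 9.94% in mock cells, 57.8% in EPR cells and 17.8% in EPRSTOPE cells. Foxa2-202 (2070 bases) took 74.8%, 30.9% and 72.1%. In single libraries Foxa2-201 was given 0, 84.8 and 0 counts in mock cells, 157, 122 and 259 in EPR cells, and 0, 40.3 and 55.8 in EPRSTOPE cells. The EPR libraries lay above the rest. The division between transcripts that overlap is an estimate that jumped between replicates, and it was not tested.

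*Hnf4a* (ENSMUSG00000017950.16, chromosome 2 from 163506808 to 163572910, plus strand), the nuclear receptor of liver and gut epithelium, had the highest counts of the 8 genes. Its counts were 391, 597 and 765 in the mock libraries, 1545, 1031 and 1210 in the EPR libraries, and 511, 915 and 659 in the EPRSTOPE libraries. Normalized for depth, the mock libraries lay close together at 60.5, 62.8 and 62.1 CPM. The EPR libraries stood at 134, 129.8 and 113 CPM, and the EPRSTOPE libraries at 86.3, 97.5 and 75.6 CPM, so that the 3 conditions did not overlap.

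The *Hnf4a* level in EPR cells was 2.03 times that in mock cells (log2 fold change 1.02 ± 0.09, SE). In EPRSTOPE cells it was 1.4 times the mock level, and this did not pass the size limit although the adjusted p was 0.00109 (log2 fold change 0.48 ± 0.09, SE, edgeR). *Hnf4a* was higher in EPR cells than in EPRSTOPE cells by a log2 fold change of 0.54 ± 0.09 (SE, adjusted p = 0.000912, edgeR), close to the limit. Without EPR library 206 that value was 0.49, and without EPRSTOPE library 211 it was 0.45, both under the limit. The *Hnf4a* order, EPR above EPRSTOPE above mock, is not the order of *Cdx2*.

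Mouse *Hnf4a* has an upstream start used in fetal liver, stomach and pancreas and a downstream start used in adult liver, and both serve the intestine. Hnf4a-201 (4356 bases) took 77.4% of the gene's counts in mock cells, 77.2% in EPR cells and 75.3% in EPRSTOPE cells, and it begins at the downstream start. Hnf4a-202, of nearly equal length, took 14.4%, 15.4% and 14.99%. The short fragment Hnf4a-205 (431 bases), which begins at the upstream start, took between 4.77% and 8.89% of the gene's counts in each of the 9 libraries. Hnf4a-203 (659 bases) was given 2.67%, 0.12% and 2.13%, or 46.7, 4.36 and 44.5 counts over the mock, EPR and EPRSTOPE libraries. These shares were not tested.

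*Hnf4g* (ENSMUSG00000017688.14, chromosome 3 from 3508030 to 3658052, plus strand), the paralogue that shares enterocyte genes with HNF4A in the intestine, was near the floor. It had 1, 4 and 4 counts in the mock libraries, 0 in all 3 EPR libraries and 2, 1 and 0 in the EPRSTOPE libraries. It did not pass the filter on low counts and was not tested. Of the HNF4 pair, these cells held *Hnf4a* RNA at a clear level and *Hnf4g* RNA at or under 3 counts per library in 7 of 9 libraries.

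The GATA pair parted in EPRSTOPE cells. *Gata4* (ENSMUSG00000021944.15, chromosome 14 from 63198922 to 63271692, minus strand) had 32, 68 and 56 counts in the mock libraries, 81, 64 and 78 in the EPR libraries, and 60, 127 and 111 in the EPRSTOPE libraries. Its levels were 5.55 ± 1.4 CPM (SD, n = 3), 7.46 ± 0.53 CPM and 12.1 ± 1.8 CPM. The mock and EPR libraries overlapped, and the EPRSTOPE libraries lay above both. *Gata4* rose in EPRSTOPE cells against mock cells (log2 fold change 1.13 ± 0.20, SE, adjusted p = 0.00055, edgeR), while its log2 fold change in EPR cells was 0.42 ± 0.20. Between EPR and EPRSTOPE cells the log2 fold change was -0.71 ± 0.19 (SE), with an adjusted p of 0.0158 that did not pass the limit.

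*Gata6* (ENSMUSG00000005836.8, chromosome 18 from 11052064 to 11085635, plus strand) had 113, 180 and 251 counts in the mock libraries, 230, 142 and 215 in the EPR libraries, and 52, 95 and 68 in the EPRSTOPE libraries. Its levels were 18.9 ± 1.4 CPM (SD, n = 3) in mock cells, 19.3 ± 1.2 CPM with EPR and 8.90 ± 1.2 CPM with EPRSTOPE. Mock and EPR libraries overlapped, with a log2 fold change of 0.03 (95% interval -0.21 to 0.26), and all EPRSTOPE libraries lay below them. *Gata6* fell in EPRSTOPE cells against mock cells by a log2 fold change of -1.09 ± 0.13 (SE, adjusted p = 2.093e-05). It was higher in EPR cells than in EPRSTOPE cells by 1.12 ± 0.13 (SE, adjusted p = 4.393e-05, edgeR). *Gata6* was thus lower in EPRSTOPE cells than in both other populations, whose libraries overlapped.

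**Figure D2:**
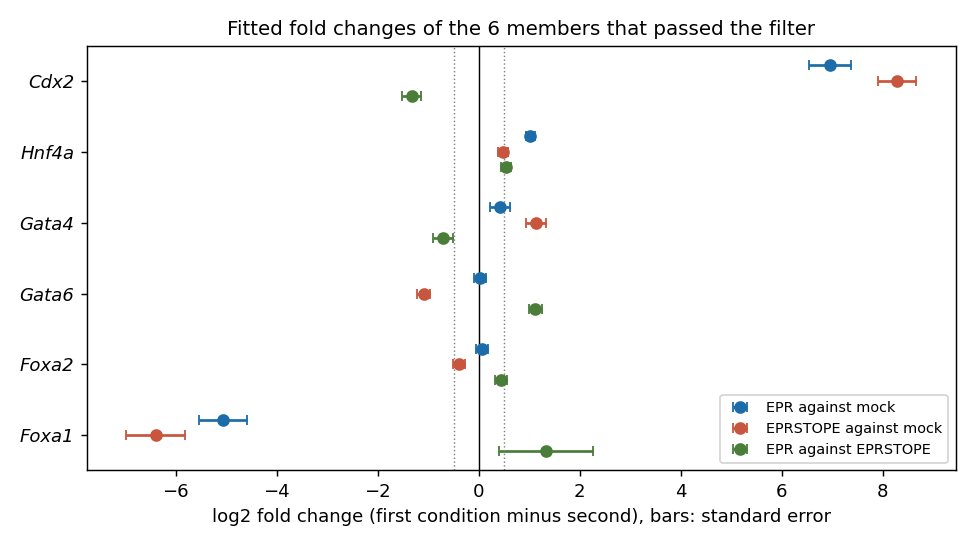
Fitted log2 fold changes (horizontal axis) of the 6 genes that passed the filter on low counts, for EPR against mock (blue), EPRSTOPE against mock (red) and EPR against EPRSTOPE (green); bars are standard errors and the dotted lines mark 0.5 in either direction. *Cdx2* and *Foxa1* lie far out on opposite sides in both comparisons with mock cells, and *Gata6* lies at 0.03 in EPR cells but at -1.09 in EPRSTOPE cells.

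Counted over the 8 genes, 6 passed the filter. *Cdx2* and *Foxa1* are left out of the calls, for the reason given with their values. Of the other 4, in EPRSTOPE cells against mock cells *Gata4* rose and *Gata6* fell, where 28.0% of all 15370 tested genes were called, 15.6% higher and 12.4% lower. Between EPR and EPRSTOPE cells the test called *Hnf4a* and *Gata6* higher with EPR, where 13.2% of all genes were called, 6.86% higher and 6.35% lower. In EPR cells against mock cells, the comparison behind the choice of genes, no call is given for the 8 genes, *Cdx2* and *Hnf4a* stood higher and *Foxa1* lower as described above, and 28.1% of all genes were called, 15.2% higher and 12.9% lower. The 3 comparisons share libraries in pairs. No overlap between libraries was common too, since it held for 57.8% of tested genes in EPR against mock cells, 56.4% in EPRSTOPE against mock cells and 43.0% in EPR against EPRSTOPE cells.

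Levels of different genes can be set side by side per transcript length, as TPM, which divides counts by effective length and scales each library to one total. In mock cells the order was *Hnf4a* (27.1 TPM), *Foxa2* (19.0), *Gata6* (4.91), *Foxa1* (2.23) and *Gata4* (2.21), followed by *Hnf4g* (0.122), *Cdx2* (0.020) and *Cdx1* at 0. *Foxa1* and *Gata4* were neighbours in that order whose library ranges overlapped, as did those of the last 3. In EPR cells *Cdx2*, at 4.11 TPM, had taken the fourth place, between *Gata6* (5.22 TPM) and *Gata4* (2.22 TPM), with no overlap to either. In EPRSTOPE cells *Cdx2* reached 10.8 TPM, with a range of 7.29 to 14.003 TPM that overlapped the 9.99 to 16.3 TPM of *Foxa2*. *Hnf4a* headed the order in all 3 populations, at 49.5 TPM in EPR cells and 39.9 TPM in EPRSTOPE cells. A large part of its TPM sat on the short Hnf4a-205 (431 bases), with 12.0 of 29.0 TPM in mock library 203. In EPR library 206 that fragment held 34.7 of 58.2 TPM. For *Foxa2* the short Foxa2-203 (775 bases) held 12.9 of 20.1 TPM in mock library 203. The order of *Hnf4a* and *Foxa2* by TPM thus depends on how reads were divided between transcripts.

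Other regulators of endoderm and gut were then examined as a list of 30 genes, of which 13 passed the filter and 7 had no count in any library. In EPR cells against mock cells 6 rose and 2 fell, where 28.1% of all tested genes were called. The median log2 fold change was 0.63 over the 13 against -0.01 over all tested genes. In EPRSTOPE cells 5 rose and 2 fell (median 0.50 against -0.04), where 28.0% of all tested genes were called. Between EPR and EPRSTOPE cells 2 were higher and 1 was lower with EPR (median 0 against 0.01), where 13.2% of all tested genes were called. The 2 that fell were *Sox2* and *Pdx1*, which passed the filter only through the mock libraries, so the filter favoured these calls. *Pdx1* was also 1 of the 2 higher with EPR against EPRSTOPE, on 15 counts against 0. Without mock library 203 or 204, 5 in place of 8 were called in EPR against mock cells, and without any 1 of the mock libraries 3 or 4 in place of 7 in EPRSTOPE against mock cells. With a single EPR or EPRSTOPE library left out 1 or 2 in place of 3 were called between those populations.

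*Elf3*, *Klf4*, *Klf5* and *Nr1h4* rose in EPR and in EPRSTOPE cells against the same mock libraries. *Elf3*, an epithelium-specific ETS factor, averaged 6.31 ± 1.1 CPM (SD, n = 3) with the empty vector, 17.8 ± 0.88 CPM with EPR and 31.3 ± 2.3 CPM with EPRSTOPE. It differed between the last 2 as well, by a log2 fold change of -0.82 (adjusted p = 0.000314, edgeR), in the direction of the *Cdx2* levels. *Klf4*, which gut epithelium uses to leave the cell cycle, went from 42.3 ± 2.1 CPM to 77.0 ± 5.0 CPM and 106 ± 3.0 CPM. *Klf5*, active in dividing crypt cells, and *Nr1h4*, the bile acid receptor FXR, also rose in both, with log2 fold changes between 0.57 and 0.66.

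*Hhex* and *Tcf7l2* rose in EPR cells and were not called in EPRSTOPE cells against mock cells. *Hhex*, a homeobox factor of early endoderm and liver, averaged 23.4 ± 4.2 CPM with the empty vector, 38.2 ± 3.4 CPM with EPR and 28.2 ± 2.9 CPM with EPRSTOPE. *Tcf7l2*, a Wnt effector of crypts, rose in EPR cells from 4.64 to 11.1 CPM and stood at 5.88 CPM in EPRSTOPE cells.

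*Sox2* and *Pdx1* were lower in EPR and EPRSTOPE cells than in mock cells. They passed the filter only through the mock libraries, so their values are given as a description. *Sox2*, the factor of oesophagus and stomach that is mutually exclusive with CDX2 along the gut tube, had 137 counts over the mock libraries and 0 in all 6 other libraries. Its mock level of 4.96 ± 0.56 CPM was at least 16.2-fold higher than in EPR cells and at least 12.7-fold higher than in EPRSTOPE cells, taking 3 counts per library as the floor. *Pdx1*, the factor of pancreas and duodenum, averaged 2.996 ± 1.1 CPM in mock cells, dropped with EPR to 0.512 ± 0.15 CPM and had no count in EPRSTOPE cells. *Sox9*, a factor of crypt and duct cells, rose in EPRSTOPE cells to 10.8 ± 2.6 CPM from 4.35 ± 0.95 CPM (log2 fold change 1.33, adjusted p = 0.00039, edgeR). *Cdx4*, *Sox17*, *Isx*, *Atoh1*, *Neurog3*, *Neurod1* and *Nr5a2* had no count at all.

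Of 23 intestinal genes, most of them described as targets of CDX2, 6 passed the filter and 5 had no count in any library. In EPR cells 5 of the 6 rose and none fell, where 15.2% of all tested genes rose. In EPRSTOPE cells 4 rose and none fell, where 15.6% of all tested genes rose. *Krt20*, *Cdhr5* and *Lgals4* passed the filter only through conditions in which they were high, so the filter favoured their calls. The numbers called in this list therefore cannot be weighed against the shares over all tested genes. The median log2 fold changes were 4.48 and 3.33, or 3.43 and 3.33 where genes absent from a condition are set to their bound. Over all tested genes the medians were -0.01 and -0.04. The whole list summed to between 11.4 and 14.2 CPM in the mock libraries, 192 to 204 CPM in the EPR libraries and 329 to 365 CPM in the EPRSTOPE libraries. Most of that sum in EPR and EPRSTOPE cells came from a pair of genes, *Cdh17* and *Lgals4*. Between EPR and EPRSTOPE cells 2 genes were higher and 3 lower with EPR, where 13.2% of all tested genes were called (3 of the list without any 1 of the EPR libraries).

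*Cdh17*, the cadherin of intestinal epithelium, stood at 6.65, 5.99 and 4.87 CPM in the mock libraries, 99.997, 104 and 108 CPM in the EPR libraries, and 246, 205 and 240.0 CPM in the EPRSTOPE libraries. It rose in both populations (log2 fold changes 4.18 and 5.33) and was lower in EPR than in EPRSTOPE cells (log2 fold change -1.15 ± 0.09, SE, adjusted p = 1.655e-06, edgeR). *Lgals4*, a galectin of the enterocyte brush border, followed the same order at 0.70, 44.8 and 86.8 CPM. *Cdhr5*, a brush border protocadherin, had no count in mock cells, 0.35 CPM with EPR and 17.3 ± 0.85 CPM with EPRSTOPE. Its rise in EPR cells rests on 11 counts and was at least 1.04-fold. These 3 genes shared the order of *Cdx2*, with EPRSTOPE above EPR above mock.

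A further pair had another order. *Vil1*, which encodes the microvillus protein villin, went from 3.36 ± 0.65 CPM in mock cells to 42.2 ± 2.6 CPM with EPR and 8.30 ± 0.86 CPM with EPRSTOPE, and was higher in EPR than in EPRSTOPE cells (log2 fold change 2.33 ± 0.13, SE, adjusted p = 1.243e-07, edgeR). *Krt20*, a keratin of differentiated enterocytes, had 96 counts over the EPR libraries and 0 in all 6 others. In EPR cells it was at least 9.16-fold higher than in mock cells. *Mep1a*, the sixth tested gene, did not pass the test (1.31, 2.53 and 1.67 CPM).

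Many defining genes of the intestine stayed silent. *Sis*, which encodes the sucrase of mature enterocytes, *Car1* and *Heph* had no count in any library. *Muc2*, the mucin of goblet cells, had 3, 7 and 0 counts over the mock, EPR and EPRSTOPE libraries, and *Fabp2*, the intestinal fatty acid binding protein, had 1, 2 and 0. Among 18 markers of intestinal secretory and stem cells, 3 passed the filter, and *Smoc2*, a crypt gene, was called among them. It fell in EPR cells and rose in EPRSTOPE cells (0.93, 0.06 and 6.23 CPM). The fall rests on 25 counts in mock and 2 in EPR cells. *Smoc2* met the filter only with the EPRSTOPE libraries, in which it was high, so the filter favoured the call of its rise. The stem cell genes *Lgr5* and *Olfm4* did not pass the filter. Over the mock, EPR and EPRSTOPE libraries *Lgr5* had 42.0, 6.3 and 4.1 counts and *Olfm4* had 0, 29 and 0. Among 10 stomach markers 1 passed the filter and none was called. The *Cdx2* RNA was thus accompanied by a small part of the intestinal list.

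**Figure D3:**
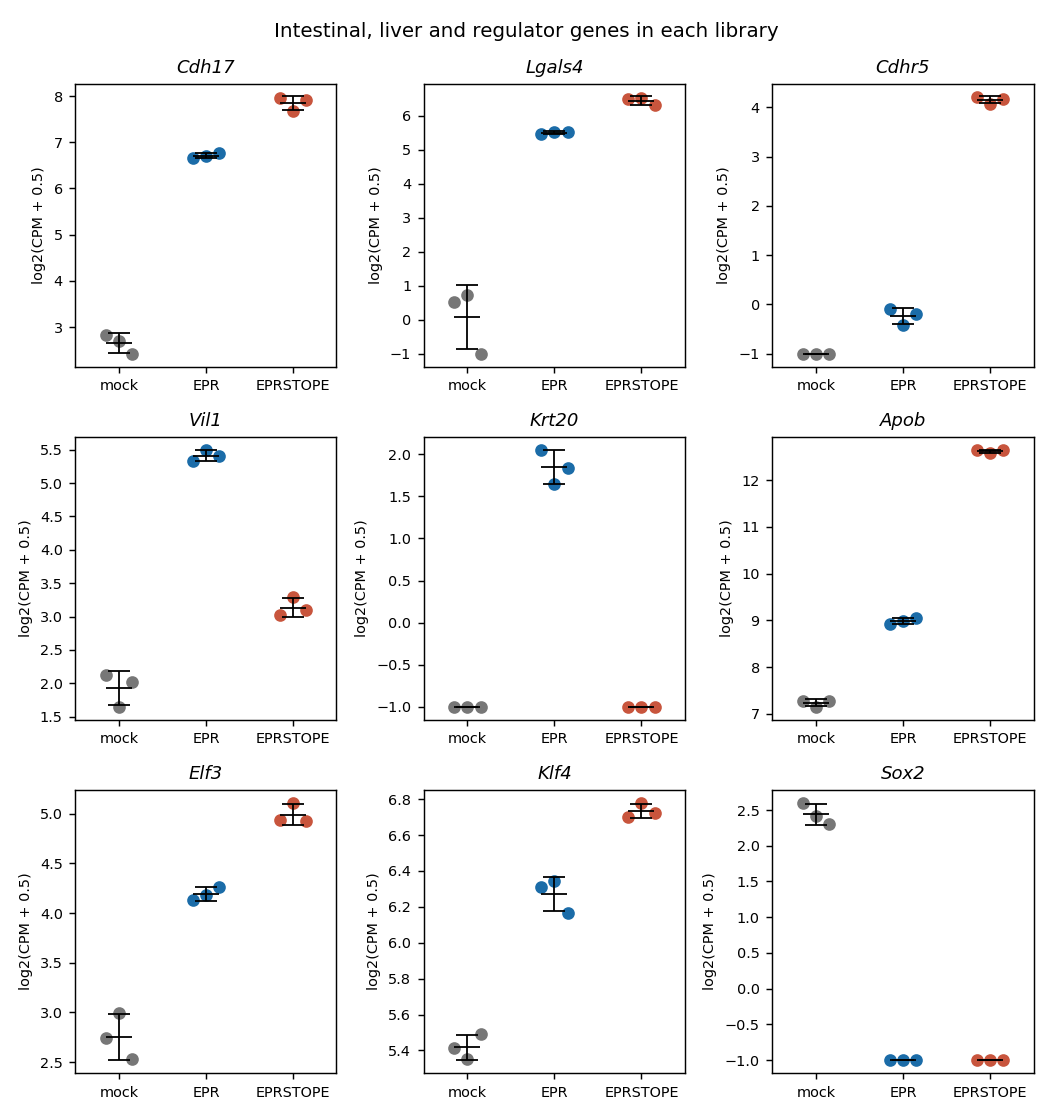
Level of 9 genes per library as log2(CPM + 0.5), so that a value of -1 stands for no count; colours and bars are as in the plot of the members and each panel has its own axis. The panels were chosen after their values were seen, and *Cdh17*, *Lgals4*, *Cdhr5*, *Apob*, *Elf3* and *Klf4* are highest in EPRSTOPE cells, *Vil1* and *Krt20* in EPR cells and *Sox2* in mock cells.

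HNF4 genes of liver and gut behaved one by one. Of 23 genes 22 were in the files, 9 had no count and 3 passed the filter. In EPR cells 1 rose and 1 fell, in EPRSTOPE cells 1 rose and 1 fell, and with EPR against EPRSTOPE 1 stood higher and 1 stood lower. In all 3 comparisons 1 was called without any 1 of the mock libraries. Over all tested genes 28.1%, 28.0% and 13.2% were called in these comparisons. *Apob*, the apolipoprotein of chylomicrons and VLDL, stood at 155, 141 and 154 CPM in the mock libraries, 483, 505 and 530 CPM in the EPR libraries, and 6378, 6112 and 6355 CPM in the EPRSTOPE libraries. It rose in both, with log2 fold changes of 1.75 ± 0.05 (SE) and 5.39 ± 0.06 (SE), and was 12.4 times as high in EPRSTOPE as in EPR cells. *Mttp*, which encodes the protein that loads lipid onto APOB, was not called in any comparison (4.55, 5.01 and 4.10 CPM).

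The liver genes proper were near the floor. *Alb*, *Apoa1* and *Ttr* had at most 17 counts over the libraries of any condition. *Serpina1b*, an alpha-1 antitrypsin gene with near-identical copies among which reads can be split, went from 3.32 ± 0.52 CPM in mock cells to 0.89 ± 0.03 CPM with EPR and 0.04 ± 0.06 CPM with EPRSTOPE. It passed the filter only through the mock libraries. *Hnf4a* RNA at 61.8 to 126 CPM on average was thus found in cells where most of this list was silent. *Apob* was highest in EPRSTOPE cells whereas *Hnf4a* was highest in EPR cells.

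Markers of the cells themselves moved with these genes. Of 13 luminal mammary genes 9 passed the filter, 6 rose in EPR cells and 4 in EPRSTOPE cells, and none fell against mock cells. Over all tested genes 15.2% and 15.6% rose. *Ehf* (0.18, 17.8 and 1.92 CPM) is counted in both populations and *Epcam* in EPR cells. These genes passed the filter only through libraries in which they were high, so the filter favoured their calls. *Gata3*, a regulator of luminal cells, lay below every mock library in both populations and was not called (2.27, 0.88 and 0.79 CPM, log2 fold changes -1.29 and -1.44). *Foxa1*, described above, is not among the 13. Their summed level ran from 3809 to 4282 CPM in the mock libraries, 9230 to 10363 CPM in the EPR libraries and 10704 to 10992 CPM in the EPRSTOPE libraries, mostly *Krt8* and *Krt18*. *Epcam*, which marks epithelia including the mammary and intestinal ones, had no count in mock cells, 113 counts over the EPR libraries and 3 over the EPRSTOPE libraries. It passed the filter only through the EPR libraries. *Esr1*, the oestrogen receptor that FOXA1 serves in luminal cells, had no count in any library, and *Pgr* had 0, 1 and 1. The 8 basal markers summed to between 10.7 and 12.2 CPM in the mock libraries, 1.51 to 1.83 CPM in the EPR libraries and 2.87 to 3.55 CPM in the EPRSTOPE libraries, with *Trp63* at 0 and *Krt5* at 0, 8.5 and 2.1 counts over the 3 conditions. *Acta2*, the smooth muscle actin of myoepithelium, made up most of the mock sum and fell in both (10.04, 1.16 and 0.80 CPM). *Krt14*, a basal keratin, made up most of the EPRSTOPE sum (0.89, 0 and 2.31 CPM). It fell in EPR cells, while in EPRSTOPE cells every library lay above the mock libraries and the difference was not called (log2 fold change 1.37).

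Markers of other cell types were also summed. The 9 fibroblast markers summed to between 0.928 and 2.27 CPM in the mock libraries, 2.39 to 3.13 CPM in the EPR libraries and 4.37 to 4.59 CPM in the EPRSTOPE libraries, with *Col1a1* under 1 CPM on average in each condition. The 9 immune and endothelial markers summed to between 13.1 and 13.9 CPM, 14.7 and 18.5 CPM, and 14.02 and 18.5 CPM, with none called. *Pecam1*, the endothelial marker CD31, made up most of that sum at 11.2, 12.4 and 13.4 CPM, and *Ptprc*, the pan-leukocyte marker, was under 1 CPM on average in each condition. *Pdgfra*, at 0, 1.18 and 1.29 CPM, was the fibroblast marker that passed the filter. It did so only through EPR and EPRSTOPE libraries, so no test of it is given. The mock cells lacked *Epcam*, a marker of the epithelium that the line is labelled to be, and the part of this and of the keratin and basal marker differences in the results above was not tested.

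Genes near the 8 were compared next, within 1000000 bases of each start. Around *Cdx2* 16 genes were tested, of which 2 rose and 2 fell in EPR cells and 3 rose and 1 fell in EPRSTOPE cells. Over all tested genes 28.1% and 28.0% were called in these comparisons. The nearest tested gene downstream of the *Cdx2* start was *Pdx1*, 37.3 kb away, which moved the other way. Its fitted log2 fold changes were -2.57 and -7.81, given as a description since it passed the filter only through mock libraries. The second size depends on how a count of 0 is treated, and *Pdx1* was at least 7.68-fold lower in EPRSTOPE than in mock cells. *Pdx1* is 1 of the 2 falls counted in EPR cells and the 1 counted in EPRSTOPE cells, and the filter favoured both calls. *D5Ertd605e*, the nearest tested gene on the other side, rose in both from 0.973 CPM to 4.45 and 2.43 CPM. The median over the 16 genes was 0.11 in EPR cells and 0.20 in EPRSTOPE cells, against -0.01 and -0.04 over all tested genes.

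*Gata4* differed in this respect. Of 10 tested genes around it 6 rose and none fell in EPR cells, and 8 rose and none fell in EPRSTOPE cells, where 15.2% and 15.6% of all tested genes rose. The medians were 0.72 and 1.01, and the log2 fold change of *Gata4* itself, 0.42 and 1.13, lay near them. Among these neighbours *Ctsb*, the lysosomal protease cathepsin B, 149.2 kb away, went from 129 CPM to 347 and 442 CPM. *Xkr6*, counted as risen in both, went from 0.306 CPM to 4.54 and 4.76 CPM. It passed the filter only through EPR and EPRSTOPE libraries, so the filter favoured its calls. The part of this stretch of chromosome 14 in the *Gata4* result was not tested.

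The surroundings of the other genes moved less as a block. *Gata6* had 8 tested neighbours, none of which rose, while 3 fell in EPR cells and 1 in EPRSTOPE cells. *Hnf4a* had 21, of which 4 rose and 3 fell in EPR cells and 5 rose and 3 fell in EPRSTOPE cells. Over all tested genes 15.2% rose and 12.9% fell in EPR cells, and 15.6% rose and 12.4% fell in EPRSTOPE cells. *Foxa1* had 3, *Foxa2* had 4, *Cdx1* had 18 and *Hnf4g* had none.

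**Figure D4:**
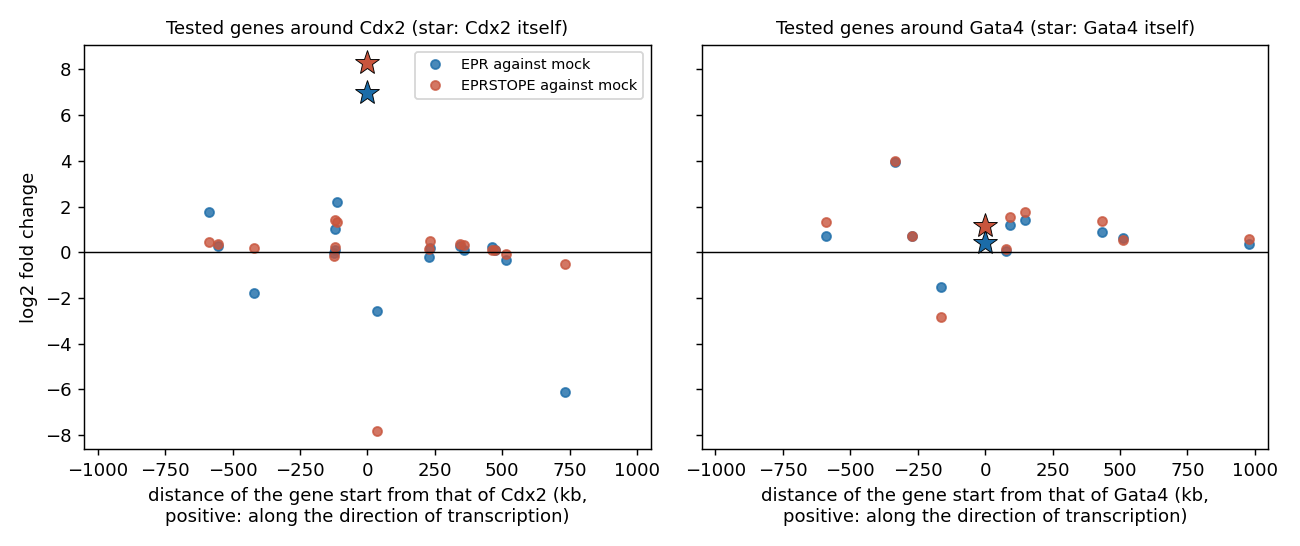
Log2 fold changes of tested genes within 1000000 bases of *Cdx2* (left) and *Gata4* (right) by distance of their start in kb, for EPR against mock (blue) and EPRSTOPE against mock (red), with the named gene as a star at 0. Around *Cdx2* most points lie near 0, and *Pdx1*, 37.3 kb away, lies at -2.57 and -7.81; the low blue point at the right rests on a gene of about 1 CPM that was not called. Around *Gata4* most points lie above 0.

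The genes whose pattern was most like each factor were sought by Pearson's r of log2(CPM + 0.5) over the 9 libraries, among 11343 genes that averaged 5 CPM or more in 1 condition. The libraries fall into 3 conditions, so such an r mostly compares 3 means, and it is given as a description. For *Cdx2* the closest were *Slpi* (r = 0.998), *Naip2* (0.998), *Sqle* (0.997), *Lgals8* (0.997) and *C1ra* (0.997). *Slpi*, which encodes a secreted leukocyte protease inhibitor, went from 0.054 CPM to 34.8 and 107 CPM. *Sqle*, the squalene epoxidase of cholesterol synthesis, went from 72.3 CPM to 132 and 161 CPM, so that the likeness is one of order and proportion on the log scale and not of size.

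For *Foxa1* the closest were *Dazap1* (r = 0.999), *Prrx2* (0.996) and *Wnt5a* (0.996), the last a secreted Wnt ligand that went from 7.55 CPM to 0.18 and 0.071 CPM. *Sardh* (r = 0.991), *Gm10175* (0.990) and *Cyba* (0.989) were closest to *Hnf4a*, and *Sardh*, a mitochondrial sarcosine dehydrogenase, had no count in mock cells, 9.58 CPM with EPR and 1.56 CPM with EPRSTOPE. *Slc39a11*, *Lrrc14* and *Slc35b1* (r = 0.982 to 0.977) lay closest to *Gata4*. *Gm24336*, *Sytl2* and *Rtkn2* (r = 0.988 to 0.981) lay closest to *Gata6*, and *Sytl2*, an effector of vesicle transport, fell to 22.9 CPM in EPRSTOPE cells from 72.5 CPM with the empty vector and 87.0 CPM with EPR. *Foxa2* had the loosest neighbours in pattern, with *Rfxank* at r = 0.940, *Tmem29* at 0.935 and *Rom1* at 0.919.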

How the data were processed

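Total RNA of 9 NMuMG libraries (3 mock, 3 EPR, 3 EPRSTOPE, grouped by the titles in the labels) was analysed. The authors quantified read pairs with Kallisto 0.43.1 on Gencode vM15 transcripts (GRCm38.p5, per the labels and methods) and deposited an unnormalized estimated count per transcript together with its TPM, scaled by effective length. The labels describe TruSeq Stranded Total RNA libraries on a NextSeq, whereas the methods name a HiSeq2500. Estimated counts were summed per symbol over the 131100 transcripts of 52459 symbols and rounded. Kallisto assigns reads to annotated exons including UTRs and divides reads shared by transcripts, so isoform values are estimates.

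The 15370 symbols that reached 1 CPM in 3 or more libraries were fitted with edgeR 4.0.16 (R 4.3.3, TMM, quasi-likelihood, 1 factor of 3 levels, all 9 libraries), with Benjamini-Hochberg adjustment over all of them. The cut-offs were 0.01 for the adjusted p and 0.5 for the size of the log2 fold change. Library totals of 5972457 to 11876435 counts set the floor of 3 counts per library. Intervals of ratios are exact 95% intervals of summed counts and cover counting error only. An exact permutation test of 3 against 3 cannot go below p = 0.1 and was not used. Alternatives were DESeq2 1.42.0, limma 3.58.1 with voom, RLE scaling, no filter, another filter, counts scaled from TPM, only the compared conditions and each library left out. Summaries and plots were made in Python 3.11.15 (matplotlib 3.10.9, scipy 1.17.1, pandas 2.3.3).

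The 8 genes, the gene lists and the tests were chosen with earlier results of these data known. Named genes were the 8, list genes called in at least 1 comparison, the 5 (*Cdx2*) or 3 genes of most similar pattern, and the nearest tested gene on each side. Other genes were named after their values were seen: *Ctsb*, *Xkr6*, *Mep1a*, *Mttp*, *Lgr5*, *Olfm4* and list genes at or near 0. Some genes belong to more than 1 list. Positions came from Gencode M21 on GRCm38. Promoter windows outside coding-gene exons, 250 bases at most, were kept for 4 of the 8 symbols, and windows were shortened at exons. Any on chromosome 18, which holds *Cdx1* and *Gata6*, were not kept. Proteins were not analysed here. Items that are not reported here were left out of the gene lists and the motif search.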

Additional observations from a re-analysis of the deposited data

How the results depend on the processing

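The results of 46 genes were recomputed under up to 16 alternatives per comparison. Of 2098 values 2023 kept their direction and side of the limits, 62 lost the call, 13 gained it and 0 changed sign among called values. Counts scaled from TPM changed most. With them the calls over all genes were 2258 for EPR against mock cells, 2337 for EPRSTOPE against mock cells and 482 for EPR against EPRSTOPE cells, against 4316, 4302 and 2031. The members called between EPR and EPRSTOPE cells became 0, the other regulators called became 3, 3 and 0, the intestinal list called between EPR and EPRSTOPE cells became 3, and the HNF4 list became 1 against mock in EPR cells and 1 between EPR and EPRSTOPE cells, where it was also 1 with only the 2 compared conditions fitted. The cause was not tested. *Gata4* and *Gata6* then also lost their call in EPRSTOPE against mock cells (log2 fold changes 1.40, adjusted p = 0.0252, and -0.81, adjusted p = 0.0417, edgeR).

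With each library left out in turn, the other regulators called ran from 5 to 9 in EPR against mock cells, 3 to 7 in EPRSTOPE against mock cells and 1 to 2 between EPR and EPRSTOPE cells (8, 7 and 3 with all libraries). The lowest numbers came without mock 203 (5) or 204 (5), without mock 203 (3), and without EPR 206, EPR 208 or any EPRSTOPE library (1). The intestinal list between EPR and EPRSTOPE cells ran from 3 to 5, at 3 without any of the EPR libraries, and the HNF4 list from 1 to 2 in all 3 comparisons, at 1 without any of the mock libraries. A gene counted in 1 condition fails the filter when a library of that condition is left out, so *Foxa1* has no value without a mock library. *Hnf4a* in EPRSTOPE against mock cells passed the size limit with counts scaled from TPM (0.74), with 2 conditions fitted (0.50) and without EPRSTOPE 211 (0.58), and *Foxa2* did so without mock 203 (-0.52). *Gata4* between EPR and EPRSTOPE cells passed with limma (adjusted p = 0.00736), with no filter (0.00977) and without mock 204 (0.00857).

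No paired analysis was possible because the conditions share no replicate numbers in the labels. Depth limits *Hnf4g*, *Cdx1*, and *Cdx2* and *Foxa1* where they are near 0.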
